A study of Mus musculus with 16 samples.

Results

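Lysosome and autophagy genes were followed in cultured neural stem and progenitor cells (NSPCs) that carried either a *Dbx2* or a *GFP* transgene. The set was a list of 46 gene symbols covering lysosomal membrane proteins, acid hydrolases, lipid-handling cofactors, the regulators *Tfeb* and *Tfe3*, and the core machinery of autophagy. All 46 were found among the 30386 genes of the expression table, and 45 of them passed the filter on low levels, which asked for more than 1 CPM (reads of a gene scaled to the total of its sample) in at least 4 of the 16 samples and left 12533 genes in all. The remaining member was *Ctss*, a cathepsin typical of microglia and macrophages, which was listed with 2 reads in *GFP*-NSPCs and 6 reads in *Dbx2*-NSPCs over all samples of each group.

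The study asked what *Dbx2*, a homeobox transcription factor, does to the transcriptome of adult NSPCs. The cells had been derived from the subventricular zone, the neurogenic niche along the lateral ventricles, of C57BL/6J/Babr mice of 3 months of age. Both groups were stable transgenic lines under puromycin selection, kept as bulk cultures and grown as floating spheres with EGF and FGF2, so the cells were proliferating in vitro and were not in the niche. RNA of 8 cultures labelled with the *GFP* transgene (*GFP*-NSPCs, the control) and of 8 labelled with the constitutive *Dbx2* transgene (*Dbx2*-NSPCs) was read by QuantSeq, a method that starts from the poly-A tail and so counts reads near the 3′ end of a transcript. The study used 2 pairs of lines, but the labels number the replicates of a group from 1 to 8, and nothing in them ties a number to a line. Among *GFP*-NSPCs alone, 28.6% of tested genes differed between the samples numbered 1 to 4 and those numbered 5 to 8. Values are therefore given over all samples and within each of these number sets.

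Lysosomes are acidic organelles in which hydrolases degrade proteins, glycans and lipids delivered by endocytosis and autophagy. In autophagy, a membrane grows around cytoplasmic cargo, is decorated with lipid-linked proteins of the Atg8 family, and fuses with the lysosome. Many lysosomal genes carry an E-box of the sequence CACGTG near their start that TFEB and TFE3 can bind. Quiescent neural stem cells of the adult niche are known for large lysosomes and high lysosomal activity compared with activated stem cells.

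The promoters of some members are shown first because the E-box is the feature the lysosomal genes are best known to share. RefSeq windows of GRCm38.p6, from 250 bases before to 50 bases after each annotated start, were given for 40 of the 46 members. CACGTG, which reads the same on both strands, was present in 14 of these 40 genes (35%). Over all genes with a window the share was 8.09%, and over the tested genes it was 11.9%. The longer form TCACGTGA, which contains CACGTG, was present in 4 members (10%) against 1.12% of all genes and 2.23% of the tested genes. Its extension to 10 bases by a G before and a C after it was in 0 of the 40 members, against 0.370% of all genes and 0.831% of the tested genes. In the stretches below, written 5′ to 3′ on the strand of the gene, each CACGTG is in capitals. *Lamp1* and *Atg5* are given as the 120 bases before the RefSeq start, and the others as 30 bases around the copy nearest to that start. For these others, part or all of the 120 bases before the RefSeq start lie in an annotated exon. The bases in an exon were 120 for *Ctsd* and *Ctsa*, 100 for *Sgsh*, 82 for *Naglu* and 62 for *Mcoln1*. The *Ctsd* and *Ctsa* stretches lie inside the gene positions given further on, and the *Mcoln1* stretch lies inside its gene, which starts at 3500457. The *Naglu* and *Sgsh* stretches lie partly inside the gene positions given further on. None of these stretches is wholly upstream of every annotated start.

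*Lamp1* (chr8:13159041-13159160, plus strand): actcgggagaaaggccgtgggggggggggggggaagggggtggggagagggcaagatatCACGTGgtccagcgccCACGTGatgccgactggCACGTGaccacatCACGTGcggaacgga
*Ctsd* (chr7:142387908-142387937, minus strand): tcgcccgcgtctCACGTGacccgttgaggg
*Ctsa* (chr2:164833749-164833778, plus strand): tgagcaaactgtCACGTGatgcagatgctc
*Naglu* (chr11:101070009-101070038, plus strand): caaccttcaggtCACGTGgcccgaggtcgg
*Sgsh* (chr11:119355522-119355551, minus strand): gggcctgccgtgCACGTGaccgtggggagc
*Atg5* (chr10:44268219-44268338, plus strand): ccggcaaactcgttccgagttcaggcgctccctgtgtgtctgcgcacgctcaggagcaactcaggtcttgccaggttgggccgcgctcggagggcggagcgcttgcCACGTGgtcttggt
*Mcoln1* (chr8:3500462-3500491, plus strand): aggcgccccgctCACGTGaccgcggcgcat

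The first 5 of these genes were higher in *Dbx2*-NSPCs, *Atg5* was lower, and *Mcoln1* did not pass the test, as described below. Shown were all members that rose or fell and held CACGTG in a window, and only *Mcoln1* of those that did not pass. *Atg7*, *Ctsf*, *Ctsl*, *Gaa*, *Gla*, *Glb1* and *Lgmn* also held CACGTG, did not pass and are not shown, so the display followed the results. *Lamp1* held 4 copies within 120 bases of its start, the nearest centred 12 bases before it. *Mcoln1* held 2 copies, so copies of the E-box were found in members that moved up, in the one that moved down and in members that did not pass.

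Sequencing depth ran from 1803928 to 3293284 reads per sample, and 3 reads, taken as the floor, were worth 0.911 to 1.66 CPM. Floors, and the exact interval of a ratio of reads, cover counting error only. The 95% intervals of log2 fold changes come from the standard error of the fit and cover the spread between samples. Reads at *Dbx2* itself averaged 77.2 ± 51.8 CPM in the controls and 155 ± 35.4 CPM with the transgene (mean ± SD, n = 8 per group; log2 fold change 1.26, adjusted p = 0.00978), and the transgenic sample was the higher one at each of the 8 replicate numbers. The groups overlapped, at 30.7 to 171 CPM in *GFP*-NSPCs and 114 to 232 CPM in *Dbx2*-NSPCs. Of the 8 *Dbx2*-NSPC samples 1 lay above the whole control range, and 6 of the 8 controls lay below the whole *Dbx2*-NSPC range. In numbers 1 to 4 the log2 fold change of *Dbx2* was 0.54 (adjusted p = 0.0891), which did not pass. In numbers 5 to 8 it was 1.99 (adjusted p = 5.67e-08), and the interaction passed (adjusted p = 0.000104). Markers of the progenitor state such as *Sox2* and *Nes* were abundant, with a summed level of 6729 to 7668 CPM over 10 genes in *GFP*-NSPCs and 5733 to 7269 CPM in *Dbx2*-NSPCs. Of 12 microglia and macrophage markers none passed the filter, and their summed level was 0 to 2.45 CPM in *GFP*-NSPCs and 0 to 2.89 CPM in *Dbx2*-NSPCs, with *Aif1*, *Tmem119*, *C1qc*, *Tyrobp* and *Trem2* at 0 in every sample.

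Over all 16 samples, 11 lysosome and autophagy genes rose in *Dbx2*-NSPCs and 1 fell. The risers were the membrane proteins *Lamp1* and *Scarb2*, the proteases *Ctsa*, *Ctsb* and *Ctsd*, the glycan-degrading enzymes *Man2b1*, *Naglu* and *Sgsh*, the lysosomal proteins *Grn* and *Ppt1*, and the autophagy gene *Wipi1*. The gene that fell was *Atg5*. The 12 called members made up 26.7% of the 45 tested, whereas 15.8% of all tested genes were called. In the upward direction the share was 24.4% of the members against 8.03% of all tested genes, and in the downward direction it was 2.22% against 7.78%. Log2 fold changes above 0 were found for 36 of the 45 members (80.0%), against 47.3% of all tested genes, and the median was 0.17 in the members and -0.02 over all tested genes. The members had been chosen with earlier results of these data known, and these shares are a description. In a bulk culture, fewer cells of a type and less RNA per cell cannot be told apart.

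**Figure D1:**
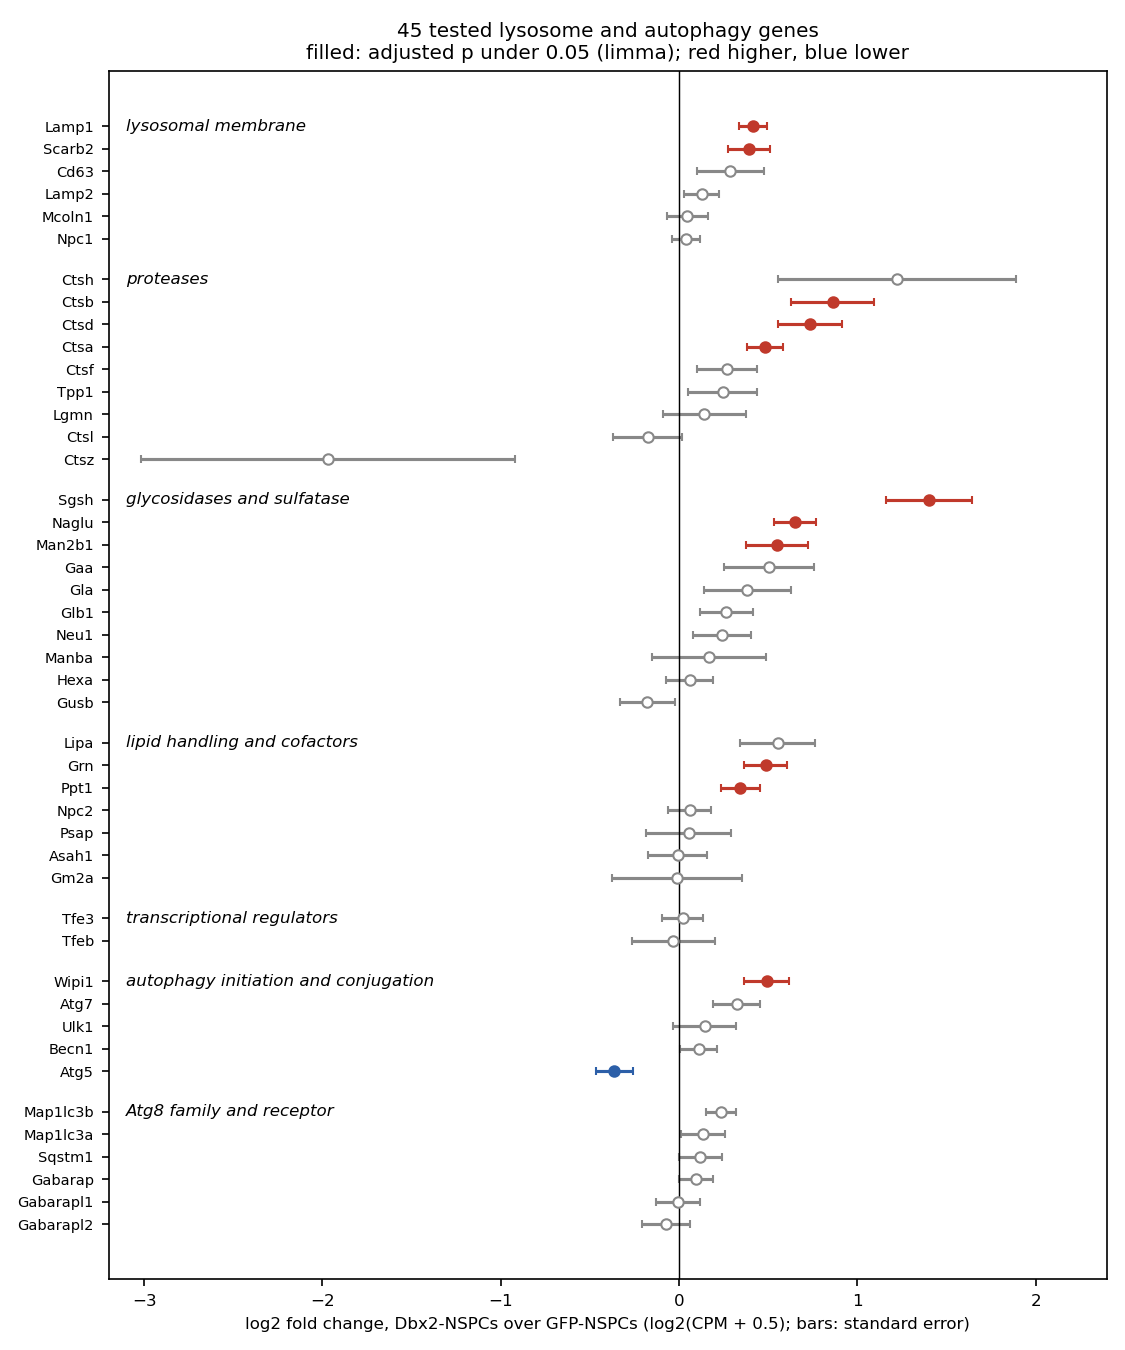
Log2 fold change (*Dbx2*-NSPCs over *GFP*-NSPCs, on the log2(CPM + 0.5) scale) of the 45 tested lysosome and autophagy genes by role, with bars for the standard error. Filled points mark the 11 genes that rose (red) and the 1 that fell (blue), and most open points also lie to the right of 0.

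The mean log2 level of the 45 members, taken relative to the mean of all tested genes in the same sample, described the set as a whole. This score averaged 1.27 ± 0.157 in the controls and 1.47 ± 0.125 with *Dbx2* (mean ± SD, n = 8 per group), a difference of 0.200 in log2 units. It ran from 1.10 to 1.57 in *GFP*-NSPCs and from 1.304 to 1.63 in *Dbx2*-NSPCs, so the groups overlapped. Among samples numbered 1 to 4 the ranges overlapped, at 1.33 to 1.57 against 1.43 to 1.63. Among samples numbered 5 to 8 they did not, at 1.10 to 1.20 against 1.304 to 1.48. At each of the 8 replicate numbers the *Dbx2*-NSPC sample had the higher score, by an average of 0.163 in the first set and 0.237 in the second.

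By role, the score differed most for the glycosidases and the sulfatase, by 0.386, from -0.137 ± 0.157 to 0.249 ± 0.0960 (mean ± SD, n = 8 per group). Their highest *GFP*-NSPC score was 0.152 and their lowest *Dbx2*-NSPC score was 0.122. The membrane proteins differed by 0.199, the lipid-handling group by 0.193 and the proteases by 0.184. The genes of autophagy initiation and conjugation differed by 0.123, the Atg8 family with its receptor by 0.0662, and the pair *Tfeb* and *Tfe3* by -0.0240. The score of the proteases ran from 0.00588 to 1.15 in *GFP*-NSPCs and from 0.242 to 1.29 in *Dbx2*-NSPCs, the widest spread of any group. The protease score includes *Ctsh* and *Ctsz*, with fitted log2 fold changes of 1.22 and -1.97. Both values depend on the 0.5 CPM added before the logarithm, so the place of the proteases among the roles depends on it too.

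**Figure D2:**
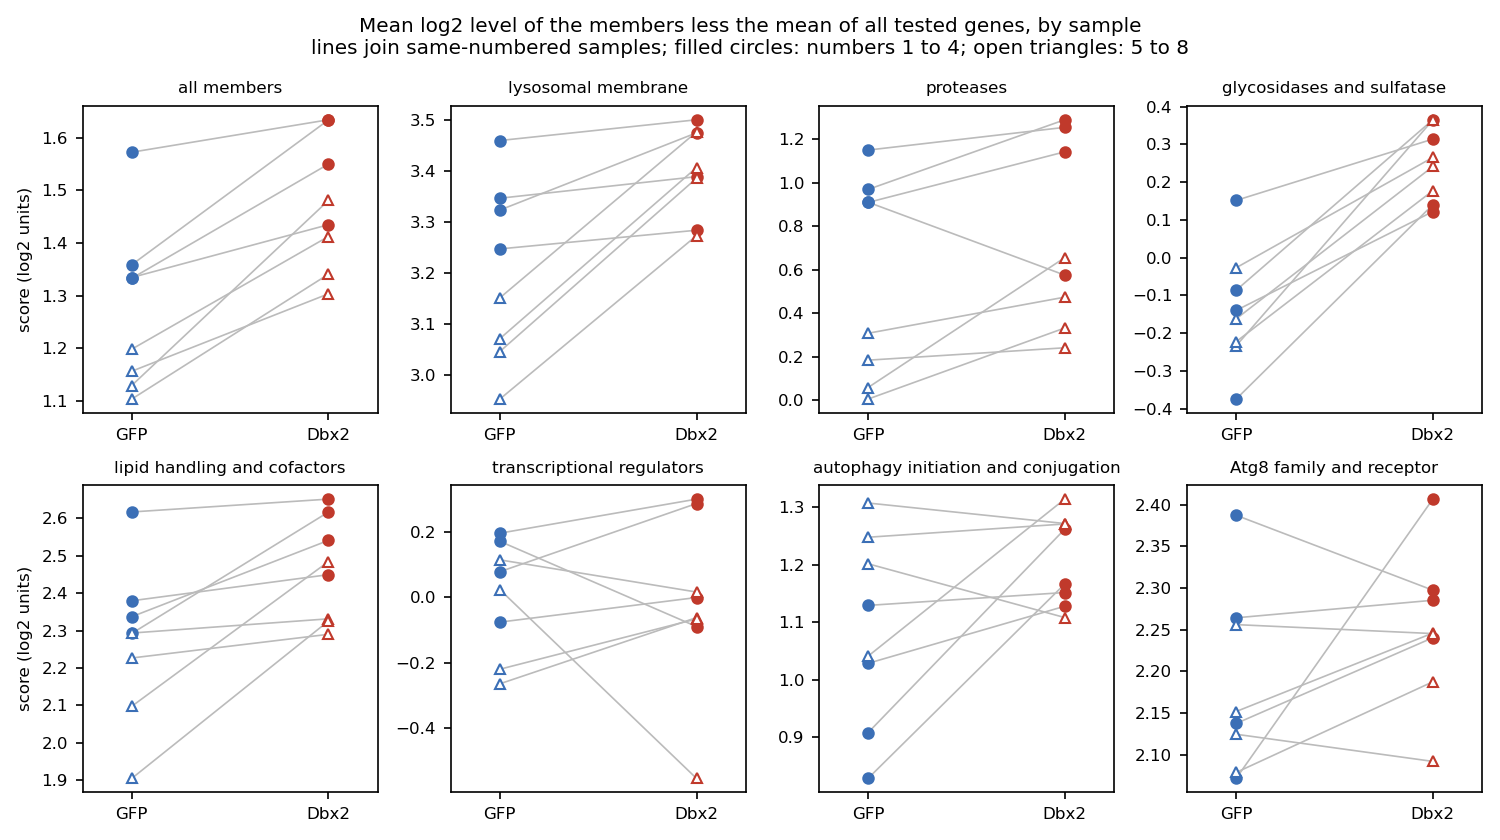
Score of all members and of each role group in each sample (mean log2 level of the tested genes less the mean of all tested genes, log2 units), with lines joining samples of the same replicate number. For all members, the membrane proteins, the glycosidases and the lipid-handling group, every line runs upward from *GFP*-NSPCs to *Dbx2*-NSPCs, and the vertical axes do not start at 0.

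The lysosomal membrane was represented by 6 genes, of which 2 rose and 0 fell. *Lamp1* encodes a major glycoprotein of the lysosomal membrane and lies on chromosome 8 from 13159161 to 13175338. *GFP*-NSPCs held 484 CPM of it at the lowest, 572 at the median and 732 at the highest, and *Dbx2*-NSPCs held 716, 750 and 872 CPM. The groups overlapped through 1 sample, since 7 of the 8 *GFP*-NSPC samples lay below the whole *Dbx2*-NSPC range. *Lamp1* rose with a log2 fold change of 0.41 (standard error 0.0794, adjusted p = 0.00125), with 0.38 in the first number set and 0.45 in the second.

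*Scarb2* encodes the membrane protein that carries glucocerebrosidase to the lysosome. In numbers 1 to 4 it was at 188.54, 175.29, 156.07 and 166.95 CPM in *GFP*-NSPCs and at 195.21, 206.08, 199.61 and 147.47 CPM in *Dbx2*-NSPCs. In numbers 5 to 8 it was at 111.38, 138.64, 120.21 and 106.92 CPM in *GFP*-NSPCs and at 199.92, 181.4, 184.19 and 190.76 CPM in *Dbx2*-NSPCs. The groups did not overlap in numbers 5 to 8, and they did in numbers 1 to 4. Over all samples *Scarb2* rose with a log2 fold change of 0.39 (standard error 0.116, adjusted p = 0.0266), made up of 0.11 in numbers 1 to 4 and 0.67 in numbers 5 to 8.

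The other membrane genes did not pass the test. Their fitted log2 fold changes were 0.29 for the tetraspanin *Cd63*, 0.13 for *Lamp2*, 0.05 for the calcium channel *Mcoln1*, and 0.04 for the cholesterol exporter *Npc1*. *Lamp2*, the partner of *Lamp1* in the lysosomal membrane, averaged 175 ± 21.4 CPM in the controls and 191 ± 25.9 CPM with *Dbx2* (mean ± SD, n = 8 per group, adjusted p = 0.411), and its 95% interval for the log2 fold change ran from -0.07 to 0.33.

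Of the 9 proteases tested, 3 rose and 0 fell. *Ctsa* encodes a carboxypeptidase that also protects neuraminidase and beta-galactosidase, on chromosome 2 from 164832873 to 164841032. It was at 36.6, 46.9 and 52.9 CPM (lowest, median and highest) in *GFP*-NSPCs and at 53.5, 64.0 and 74.4 CPM in *Dbx2*-NSPCs, with no overlap between the groups. *Ctsa* rose with a log2 fold change of 0.48 (standard error 0.101, adjusted p = 0.00262), and 0.57 and 0.39 in the number sets. *Pltp*, which ends near *Ctsa* on the opposite strand, was at 3.19 CPM on average and also rose, with a log2 fold change of 2.06 (adjusted p = 0.000373). Groups without overlap in the upward direction were seen in 3 members, *Ctsa*, *Naglu* and *Sgsh*, and in 1.6% of all tested genes. Groups without overlap in the downward direction were seen in 0 members and in 1.81% of all tested genes.

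*Ctsd* encodes the aspartic protease of the lysosome and lies on chromosome 7 from 142375911 to 142388038. It was at 241, 307 and 621 CPM (lowest, median and highest) in *GFP*-NSPCs and at 342, 606 and 668 CPM in *Dbx2*-NSPCs. The highest *GFP*-NSPC sample was replicate 1, at 620.82 CPM, with the next at 363.99 CPM. Among *GFP*-NSPCs this sample was also the highest for *Dbx2*, at 171.22 CPM, and for the score of all members, at 1.57. A link between these levels was not tested. Over all samples *Ctsd* rose by 0.74 on the log2 scale (standard error 0.179, adjusted p = 0.00809), with 0.71 in numbers 1 to 4 and 0.76 in numbers 5 to 8.

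*Ctsb* encodes a cysteine protease of broad specificity. It was at 54.9, 81.9 and 213 CPM in *GFP*-NSPCs and at 124, 150 and 249 CPM in *Dbx2*-NSPCs, and 7 of 8 *GFP*-NSPC samples lay below the *Dbx2*-NSPC range. The exception was replicate 1, at 213.12 CPM. For *Ctsd*, by contrast, 5 of 8 *GFP*-NSPC samples lay below the *Dbx2*-NSPC range. The rise of *Ctsb* was 0.86 on the log2 scale (standard error 0.233, adjusted p = 0.0155), 0.62 in numbers 1 to 4 and 1.10 in numbers 5 to 8. The end of *Ctsb* lies near that of *Fdft1* on the opposite strand, which was at 56.5 CPM with a log2 fold change of -0.29 (adjusted p = 0.316), and the strand used for counting was not given in the sources used here.

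Among the proteases that did not pass, the log2 fold change over all samples was 0.27 for *Ctsf*, 0.24 for the tripeptidyl peptidase *Tpp1*, 0.14 for the legumain gene *Lgmn* and -0.18 for *Ctsl*. *Ctsh* and *Ctsz* had fitted values of 1.22 and -1.97, with standard errors of 0.666 and 1.05, and both differed between the number sets, as given further on.

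The 10 enzymes that cut sugars and sulfates off glycans held 3 genes that rose and 0 that fell. *Sgsh*, the sulfamidase of heparan sulfate breakdown, lies on chromosome 11 from 119343425 to 119355536 and had the largest increase of the 12 called members. In numbers 1 to 4 it was at 16.11, 12.34, 8.8 and 9 CPM in *GFP*-NSPCs and at 22.47, 27.62, 22.79 and 30.14 CPM in *Dbx2*-NSPCs. In the second set, numbers 5 to 8, it was at 14.96, 21.16, 14.34 and 17.27 CPM in *GFP*-NSPCs and at 51.39, 72.06, 48.76 and 45.58 CPM in *Dbx2*-NSPCs. Every *Dbx2*-NSPC sample lay above every *GFP*-NSPC sample, and the *Dbx2*-NSPC samples of the second set lay above those of the first. *Sgsh* rose with a log2 fold change of 1.40 (standard error 0.240, adjusted p = 0.000443), which is 2.64-fold.

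*Naglu* encodes the glucosaminidase of the same heparan sulfate pathway, on chromosome 11 from 101070012 to 101077672. It was at 16.04, 21.2 and 24.4 CPM (lowest, median and highest) in *GFP*-NSPCs and at 26.7, 32.6 and 41.6 CPM in *Dbx2*-NSPCs, again with no overlap. *Naglu* rose by 0.65 on the log2 scale (standard error 0.118, adjusted p = 0.000753), with 0.84 and 0.46 in the number sets.

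*Man2b1*, the lysosomal alpha-mannosidase, was at 15.6, 27.2 and 36.2 CPM (lowest, median and highest) in *GFP*-NSPCs and at 26.0, 37.9 and 51.5 CPM in *Dbx2*-NSPCs. It was higher in *Dbx2*-NSPCs at all 8 replicate numbers although the groups overlapped. Its log2 fold change was 0.55 (standard error 0.176, adjusted p = 0.0394). Without *GFP*-NSPC replicate 1 it was 0.51 with an adjusted p of 0.0625, and the adjusted p ranged up to 0.0793 over the alternatives, so this call is close to the threshold.

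The remaining glycan enzymes did not pass. Log2 fold changes were 0.50 for the acid alpha-glucosidase *Gaa*, 0.38 for the alpha-galactosidase *Gla*, 0.27 for the beta-galactosidase *Glb1*, 0.24 for the sialidase *Neu1*, 0.17 for the beta-mannosidase *Manba*, which lay at 0.61 to 3.63 CPM and so near the floor, 0.06 for the hexosaminidase subunit *Hexa* and -0.18 for the beta-glucuronidase *Gusb*. *Gaa*, the enzyme of lysosomal glycogen breakdown, averaged 29.4 ± 9.08 CPM in the controls and 44.3 ± 19.9 CPM with *Dbx2* (mean ± SD, n = 8 per group, adjusted p = 0.192). With the replicate number as a block its adjusted p was 0.0272, against a range of 0.00334 to 0.306 over the alternatives, and the count of members that rose became 12.

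Among the 7 genes of lipid handling and their cofactors, 2 rose and 0 fell. *Grn* encodes progranulin, a secreted protein that is taken up into lysosomes and processed to granulins, and lies on chromosome 11 from 102430315 to 102437048. It was at 131, 166 and 212 CPM (lowest, median and highest) in *GFP*-NSPCs and at 174, 235 and 280 CPM in *Dbx2*-NSPCs. It was higher at all 8 replicate numbers, with a log2 fold change of 0.49 (standard error 0.120, adjusted p = 0.00906), 0.37 in numbers 1 to 4 and 0.61 in numbers 5 to 8. *Fam171a2*, whose end lies near that of *Grn* on the opposite strand, also had a higher level, with 98.9 CPM on average and a log2 fold change of 0.40 (adjusted p = 0.0244), and reads of the pair cannot be told apart if strand was not used in counting.

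*Ppt1*, the thioesterase that removes palmitate from proteins, was at 39.9, 50.1 and 70.5 CPM (lowest, median and highest) in *GFP*-NSPCs and at 58.5, 63.4 and 73.6 CPM in *Dbx2*-NSPCs. The *Dbx2*-NSPC samples were all above the *GFP*-NSPC median, and the groups overlapped. *Ppt1* rose by 0.34 on the log2 scale (standard error 0.108, adjusted p = 0.0350), 0.19 in numbers 1 to 4 and 0.50 in numbers 5 to 8. *Cap1*, which ends near *Ppt1* on the opposite strand, was at 50.9 CPM with a log2 fold change of 0.02 (adjusted p = 0.939).

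The other lipid genes did not pass. Log2 fold changes were 0.55 for the acid lipase *Lipa*, 0.06 for the cholesterol carrier *Npc2*, 0.05 for the saposin precursor *Psap*, -0.01 for the ceramidase *Asah1* and -0.01 for the ganglioside activator *Gm2a*. *Npc2* was one of the more abundant members, with averages of 418 ± 86.6 CPM in the controls and 430 ± 52.3 CPM with *Dbx2* (mean ± SD, n = 8 per group, adjusted p = 0.786).

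*Tfeb* and *Tfe3*, the transcription factors known to drive lysosomal genes, did not pass the test. *Tfeb* averaged 8.59 ± 2.39 CPM in the controls and 8.63 ± 3.01 CPM with *Dbx2*, with a log2 fold change of -0.03 (95% interval -0.52 to 0.45, adjusted p = 0.948). *Tfe3* averaged 45.9 ± 7.41 and 46.5 ± 7.13 CPM, with a log2 fold change of 0.02 (95% interval -0.22 to 0.26, adjusted p = 0.933; mean ± SD, n = 8 per group for both genes). These are RNA levels, and the activity of both factors is set largely by where the protein resides, which was not measured.

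In the promoter windows, CACGTG was present in 5 of the 10 members that rose and had a window, and in 9 of the other 30. The median log2 fold change was 0.35 in the 14 tested members with CACGTG and 0.13 in the 25 without it. Over all tested genes with a window the medians were -0.03 with and -0.03 without the motif, and 7.52% and 7.91% of the genes rose. The difference among the members was not tested.

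**Figure D3:**
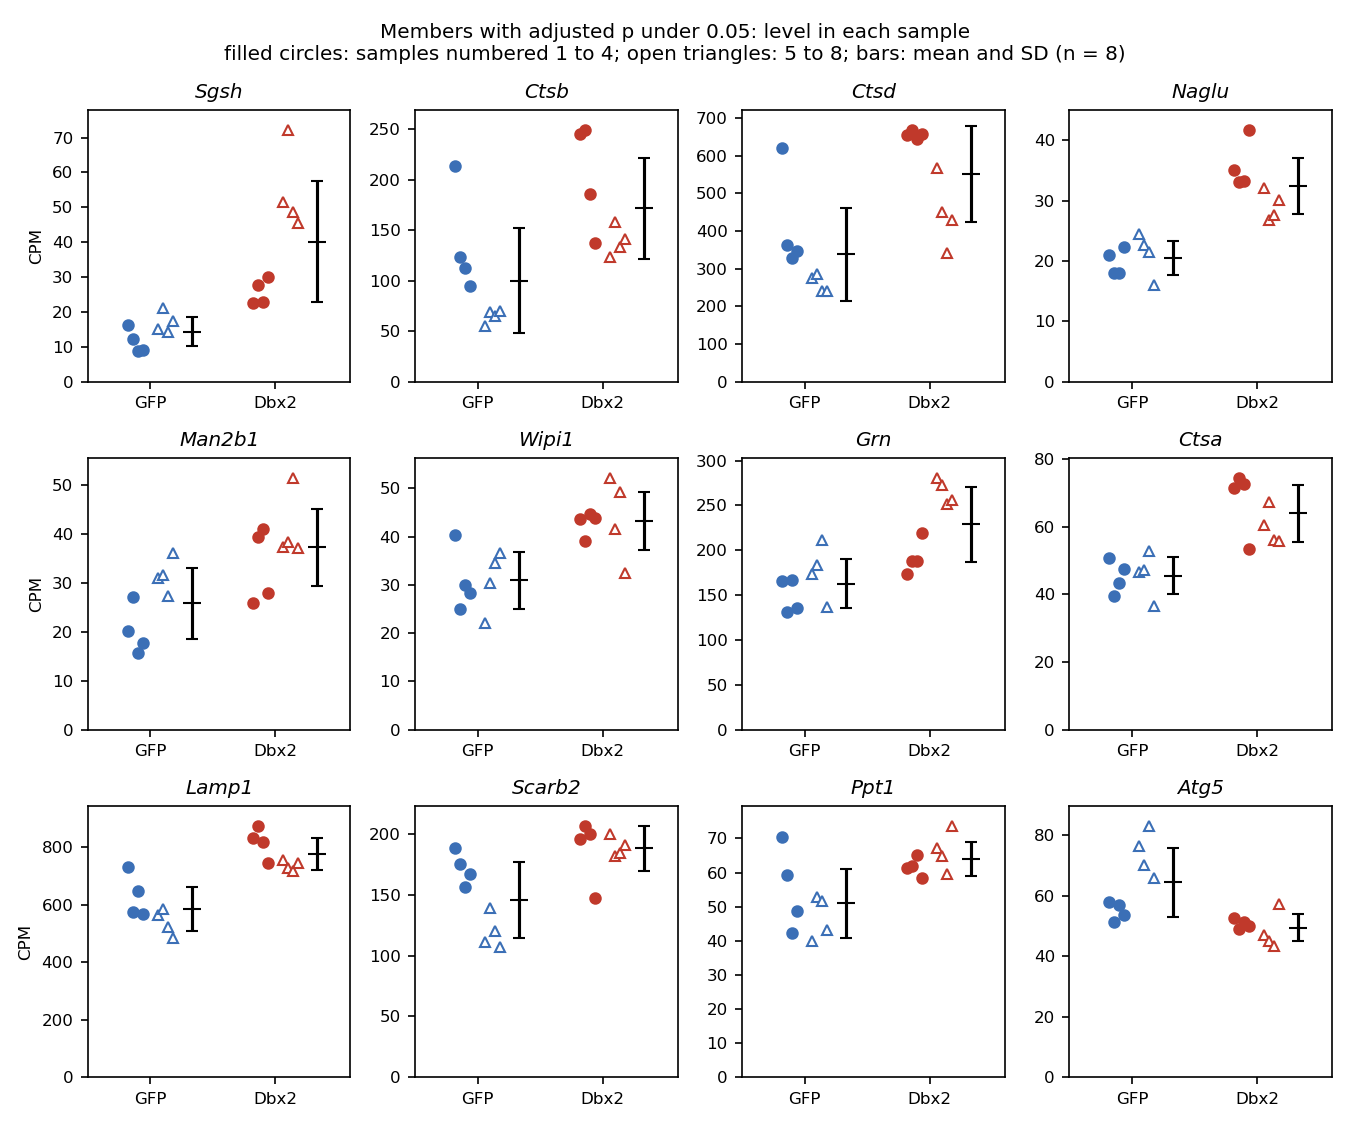
CPM of the 12 called members in each sample, with *GFP*-NSPCs in blue and *Dbx2*-NSPCs in red, filled circles for numbers 1 to 4, open triangles for numbers 5 to 8, and bars for mean and SD (n = 8). *Sgsh*, *Naglu* and *Ctsa* show no overlap, and a single high *GFP*-NSPC sample stands out for *Ctsb* and *Ctsd*.

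The genes of autophagosome formation held 1 gene that rose and 1 that fell among the 5 tested. *Wipi1*, which binds phosphoinositide at the forming autophagosome, was at 22.2, 30.2 and 40.3 CPM (lowest, median and highest) in *GFP*-NSPCs and at 32.4, 43.7 and 52.1 CPM in *Dbx2*-NSPCs. It was higher in the *Dbx2*-NSPC sample at 7 of 8 replicate numbers. *Wipi1* rose by 0.49 on the log2 scale (standard error 0.127, adjusted p = 0.0120), 0.48 in numbers 1 to 4 and 0.50 in numbers 5 to 8.

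*Atg5* encodes the protein that, linked to ATG12, helps attach lipid to the Atg8 family, and lies on chromosome 10 from 44268358 to 44364291. It was at 51.5, 61.9 and 83.0 CPM (lowest, median and highest) in *GFP*-NSPCs and at 43.3, 49.5 and 57.4 CPM in *Dbx2*-NSPCs, and lower at all 8 replicate numbers. *Atg5* fell, with a log2 fold change of -0.36 (standard error 0.105, adjusted p = 0.0231). It was -0.61 (adjusted p = 0.00170) in numbers 5 to 8 and -0.11 (adjusted p = 0.531) in numbers 1 to 4. The difference between the sets did not pass (adjusted p = 0.0590). With *Atg5* lower and *Wipi1* higher, this group moved in both directions.

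*Atg7*, the activating enzyme of the same conjugation step, had a log2 fold change of 0.32 (adjusted p = 0.113). The kinase gene *Ulk1* had 0.14 and *Becn1*, a subunit of the lipid kinase complex, had 0.11, and neither passed.

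The Atg8 family, the lipid-linked proteins that coat autophagosomes, and the cargo receptor *Sqstm1* held 0 called genes out of 6. *Map1lc3b* was at 90.9, 119 and 155 CPM (lowest, median and highest) in *GFP*-NSPCs and at 131, 138 and 151 CPM in *Dbx2*-NSPCs. Of the *GFP*-NSPC samples 7 lay below the *Dbx2*-NSPC range and 1 above it. The log2 fold change was 0.24 (standard error 0.0851, adjusted p = 0.0672), and it passed in 7 of the 16 alternatives, with adjusted p from 0.0119 to 0.528. One of these left out *GFP*-NSPC replicate 1 (0.29, adjusted p = 0.0119). *Zcchc14*, which ends near *Map1lc3b* on the opposite strand, was at 24.985 CPM and fell, with a log2 fold change of -0.36 (adjusted p = 0.0449).

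*Map1lc3a* was at 57.99, 88.4 and 109 CPM in *GFP*-NSPCs and at 77.7, 92.0 and 122 CPM in *Dbx2*-NSPCs (lowest, median and highest), with a log2 fold change of 0.13 (adjusted p = 0.515). *Gabarap* was at 104, 134 and 183 CPM and at 135, 146 and 162 CPM, with 0.10 (adjusted p = 0.554). The ranges overlapped widely for both genes. *Gabarapl1* was at 72.0, 86.3 and 113 CPM and at 64.2, 87.2 and 120 CPM, with -0.01 (adjusted p = 0.985). *Gabarapl2* was at 21.5, 30.6 and 36.2 CPM and at 22.2, 29.6 and 34.8 CPM, with -0.07 (adjusted p = 0.766). The 95% intervals of the log2 fold change reached from -0.35 to 0.41 over the whole family. *Sqstm1*, which encodes p62, had a log2 fold change of 0.12 (adjusted p = 0.559).

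The comparison was repeated within each number set. In numbers 1 to 4, 9 members rose and 1 fell, with a median log2 fold change of 0.08, and of all tested genes 15.6% were called, 8.19% higher and 7.37% lower. In numbers 5 to 8, 15 members rose and 2 fell, with a median of 0.25, and of all tested genes 23.2% were called, 11.5% higher and 11.7% lower. With all 16 samples and the replicate number as a block, 12 members rose and 2 fell, and of all tested genes 21.7% were called, 10.8% higher and 10.9% lower. The log2 fold change was above 0 in both sets for 23 of the 45 members (51.1%), against 28.6% of all tested genes.

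The difference between the sets was tested by an interaction term, which passed for 6 members and for 9.44% of all tested genes. The 6 were *Cd63*, *Scarb2*, *Ctsh*, *Ctsz*, *Gm2a* and *Lipa*. Only *Scarb2* among them was called over all samples.

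*Cd63*, a tetraspanin of lysosomes and exosomes, was at 1769.79, 1930.34, 1751.68 and 1652.22 CPM in *GFP*-NSPCs 1 to 4 and at 1772.28, 1648.62, 1569.21 and 1215.27 CPM in *Dbx2*-NSPCs 1 to 4. In the samples numbered 5 to 8 it was at 978.58, 850.54, 839.78 and 791.64 CPM in *GFP*-NSPCs and at 1759.2, 1448.73, 1474.44 and 1293.82 CPM in *Dbx2*-NSPCs. The low samples were thus the 4 *GFP*-NSPC samples of the second set. The log2 fold change was -0.21 in the first set and 0.78 in the second, and the difference of 0.99 passed (adjusted p = 9.01e-05).

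*Gm2a*, the activator of ganglioside breakdown, was at 238.5, 171.41, 184.75 and 236.27 CPM in *GFP*-NSPCs 1 to 4 and at 163.42, 129.6, 114.62 and 119.12 CPM in *Dbx2*-NSPCs 1 to 4. Among the samples numbered 5 to 8 it was at 57.07, 63.8, 48.49 and 36.19 CPM in *GFP*-NSPCs and at 79.2, 69.27, 78.55 and 87.45 CPM in *Dbx2*-NSPCs. It fell in the first set (-0.65, adjusted p = 0.00860) and rose in the second (0.63, adjusted p = 0.00782), with no overlap in either. The difference was 1.29 (adjusted p = 0.000148), and the value near 0 over all samples joins these opposite changes.

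*Lipa*, the lipase of cholesteryl esters and triglycerides, was at 17.73, 13.4, 13.68 and 14 CPM in *GFP*-NSPCs 1 to 4 and at 34.67, 38.54, 34.52 and 34.8 CPM in *Dbx2*-NSPCs 1 to 4. In the second set it was at 19.95, 39.57, 29.03 and 27.14 CPM in *GFP*-NSPCs and at 32.38, 25.47, 20.77 and 23.63 CPM in *Dbx2*-NSPCs. It rose in the first set, with a log2 fold change of 1.26 (adjusted p = 0.000266), and was -0.15 in the second. The difference was -1.41 (adjusted p = 0.000574).

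*Ctsh*, an aminopeptidase of the cathepsin family, was low in every sample. It was at 4.43, 4.59, 5.21 and 3 CPM in *GFP*-NSPCs 1 to 4 and at 3.21, 2.73, 2.61 and 0 CPM in *Dbx2*-NSPCs 1 to 4. The *GFP*-NSPC samples numbered 5 to 8 held 1 read in all and the *Dbx2*-NSPC samples 77 reads, at 9.5, 7.14, 4.97 and 5.4 CPM. The ratio of these reads per total was 71.4 with a 95% exact interval of 12.4 to 2858, which covers counting error only. The fitted log2 fold changes were -1.19 and 3.63, and their difference passed (adjusted p = 2.04e-05).

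*Ctsz*, another carboxypeptidase, was at 19.34, 36.68, 33.23 and 44.65 CPM in *GFP*-NSPCs 1 to 4 and at 28.57, 37.03, 29.96 and 33.37 CPM in *Dbx2*-NSPCs 1 to 4. In numbers 5 to 8 it was at 6.65, 11.96, 7.85 and 4.11 CPM in *GFP*-NSPCs and had 0 reads in all 4 *Dbx2*-NSPC samples. Against the highest floor of 3 reads in a library, 1.35 CPM, it was at least 5.64-fold lower in *Dbx2*-NSPCs of this set. The difference between the sets passed (adjusted p = 2.73e-07). With the replicate number as a block, *Ctsz* was called lower over all samples (adjusted p = 0.0269, range over the alternatives 3.91e-06 to 0.9998), and the count of members that fell became 2. The same block in edgeR on recovered reads did not call it (log2 fold change -0.84, adjusted p = 0.281), and edgeR without the block gave -0.32 (adjusted p = 0.830). *Nelfcd*, which ends near *Ctsz* on the opposite strand, was at 184 CPM on average and rose, with a log2 fold change of 0.38 (adjusted p = 0.0261).

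**Figure D4:**
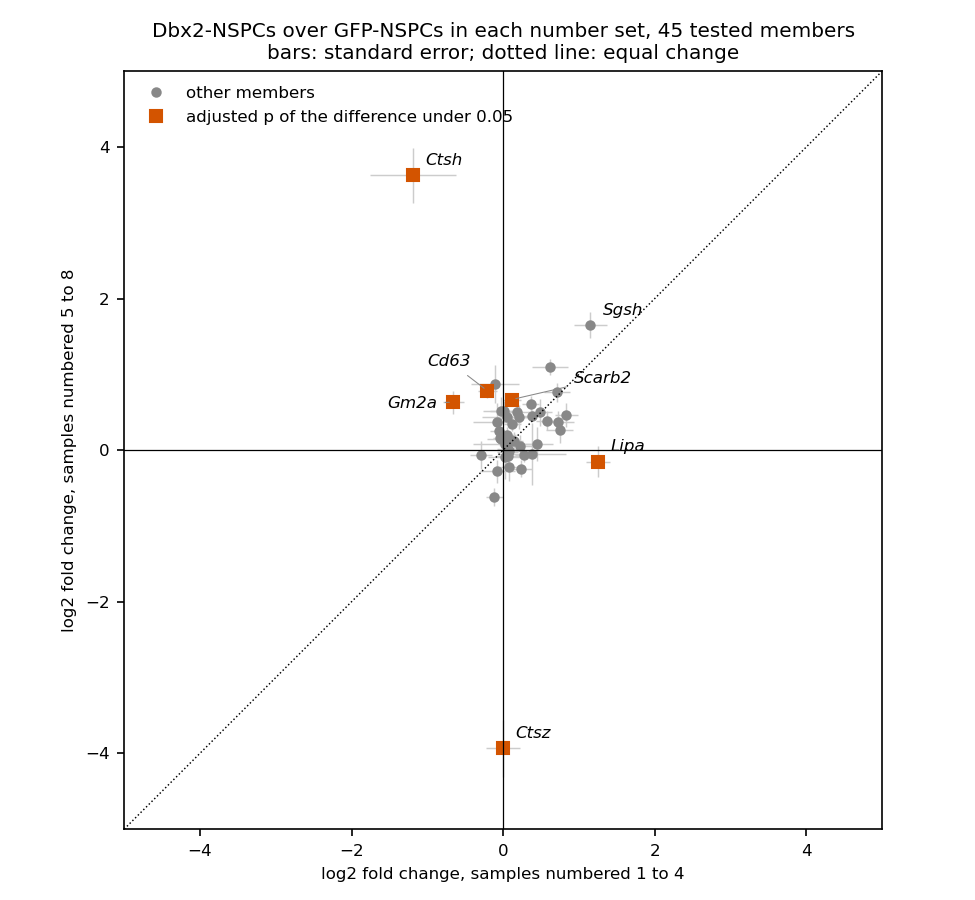
Log2 fold change in samples numbered 5 to 8 (vertical) against samples numbered 1 to 4 (horizontal) for the 45 tested members, with bars for the standard error and a dotted line for equal change. Most members cluster near the origin or in the upper right, and the 6 members with a difference between the sets (orange squares) lie away from the line.

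**Figure D5:**
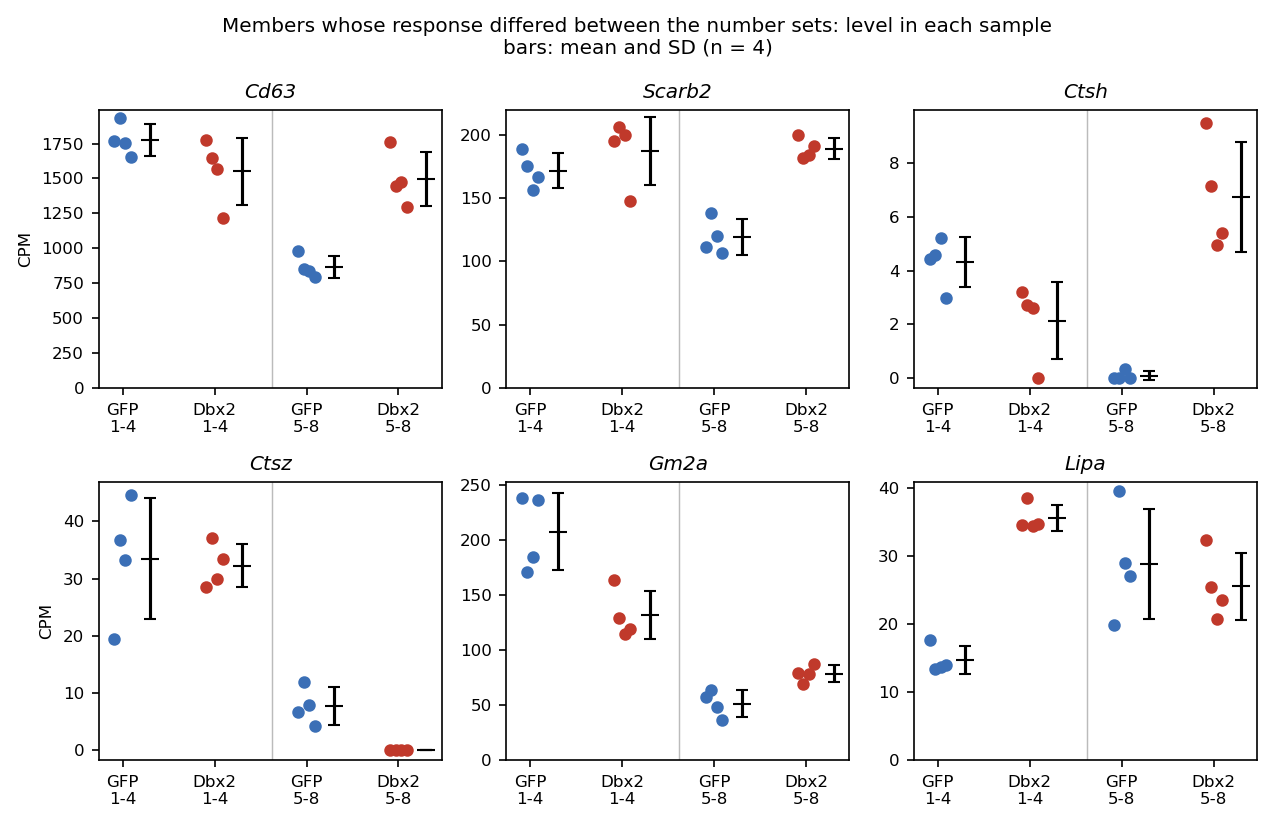
CPM of the 6 members whose response differed between the number sets, in each of the 4 samples of each group and set, with mean and SD (n = 4). *GFP*-NSPCs numbered 5 to 8 are the low group for *Cd63*, *Scarb2*, *Gm2a* and *Ctsh*, and *Ctsz* is at 0 in *Dbx2*-NSPCs numbered 5 to 8.

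Further genes of the same pathways were taken from 7 lists of 129 genes outside the members, of which 123 were tested. Of these, 11 rose and 2 fell, and the 10.6% called lay below the 15.8% called over all tested genes. In the upward direction the share was 8.94% against 8.03% of all tested genes, and in the downward direction 1.63% against 7.78%. Log2 fold changes above 0 were found for 61.8% of them against 47.3% of all tested genes. The median log2 fold change was 0.09 against -0.02. The proton pump that acidifies the lysosome had 2 genes that rose out of 17, *Atp6v1f* with a log2 fold change of 0.47 (adjusted p = 0.000308) and *Atp6v0b* with 0.36 (adjusted p = 0.00246). Of 19 other hydrolases, 2 rose, the fucosidase *Fuca1* with 0.91 (adjusted p = 0.00454) and the sulfatase *Galns* with 0.75 (adjusted p = 0.0479), and 5 rose with the replicate number as a block. *Fuca1* was at 44.99 to 151 CPM in *GFP*-NSPCs and 160 to 216 CPM in *Dbx2*-NSPCs, without overlap. Groups without overlap in the upward direction were seen in 2 of the 123 genes and in 1.6% of all tested genes. In the downward direction they were seen in 0 of the 123 and in 1.81% of all tested genes.

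Of 17 other membrane proteins, 2 rose, *Laptm4a* with 0.55 (adjusted p = 0.00151) and the cation channel *Tpcn1* with 0.56 (adjusted p = 0.0380). Of the 10 genes that sort hydrolases to the lysosome, 2 rose, the sortilin-related receptor *Sorl1* with 0.78 (adjusted p = 0.00950) and *Nagpa*, which completes the mannose 6-phosphate tag, with 0.50 (adjusted p = 0.0161). Of 22 genes of mTORC1 signalling at the lysosome, 1 rose, the GTPase *Rragd* with 0.73 (adjusted p = 0.0143).

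Of 27 other core autophagy genes, 0 rose and 1 fell, the protease *Atg4d* with -0.49 (adjusted p = 0.0382). Of 11 autophagy receptors, 2 rose and 1 fell. These were the receptors of the endoplasmic reticulum *Tex264*, at 0.82 (adjusted p = 0.000767), and *Calcoco1*, at 0.66 (adjusted p = 0.00673), and *Retreg1*, at -1.53 (adjusted p = 0.00516), whose level averaged 2.28 ± 0.887 CPM in the controls and 0.583 ± 0.633 CPM with *Dbx2* (mean ± SD, n = 8 per group), close to the floor.

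Markers of other cell types also differed between the groups. *Cnp* and *Mobp* of the oligodendrocyte list rose, and its summed level over 7 genes was 54.7 to 116 CPM in *GFP*-NSPCs and 101 to 187 CPM in *Dbx2*-NSPCs, with *Mog* at 0 in every sample. Of 8 astrocyte markers 2 rose (*Aldoc* and *Gfap*) and 3 fell (*Gja1*, *Slc1a3* and *Aldh1l1*), with summed levels of 947 to 2874 CPM and 1165 to 1893 CPM. Of the 8 neuronal markers 1 fell, *Map2*, with summed levels of 861 to 1296 CPM and 712 to 907 CPM, and of 6 endothelial markers 1 rose, *Flt1*, with sums of 0.670 to 11.7 CPM and 4.81 to 19.6 CPM and with *Cldn5* and *Cdh5* at 0. Of the 10 progenitor markers 4 fell, *Egfr*, *Fabp7*, *Pax6* and *Msi1*. The part of these shifts in the levels of the lysosome and autophagy genes was not tested.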

How the data were processed

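RNA of 8 *GFP*-NSPC and 8 *Dbx2*-NSPC samples was analysed from the table of CPM (reads of a gene scaled to the total of its sample) that the authors deposited. The submitters' processing notes name FastQC 0.11.8, STAR 2.5.0a and edgeR 3.36; the methods add trimming with bbduk and the GRCm38 genome with Ensembl annotation. The counting tool and the strand are not given in the sources used here. All 16 sample columns were used and 0 were left out. Within a tolerance of 0.1 read, 100% of the low values were whole reads, so reads were recovered for the count tests.

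The test, on genes above 1 CPM in 4 or more samples, was that of limma 3.58.1 in R 4.3.3 (lmFit, eBayes with trend) on log2(CPM + 0.5), 2-sided, and p-values were adjusted over all tested genes by Benjamini and Hochberg, at a threshold of 0.05. Every adjusted p in the text is from limma unless another tool is named. Those given for a number set, for the interaction, with the replicate block or without a sample are from separate limma fits. Ranges over the alternatives take in all the tools. A fold change on the log2(CPM + 0.5) scale understates the change of low genes. The covariate of the study, the cell line, is not in the labels and was not fitted. The difference between number sets is the interaction of transgene and set in limma. The samples are given as biological replicates, and by the paper they are repeat experiments on 2 pairs of lines. Cultures of 1 line share an origin. The p-values measure the spread between cultures, which in the main fit includes the difference between the number sets. They do not measure the spread between transgenic lines made independently.

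The replicate numbers come from the sample titles. Deviations of same-numbered samples from their group means had correlations of 0.152 to 0.303, above 0.1 for every pair. Their mean was 0.226, against 0.199 between other numbers of the same set. Within the sets the mean was 0.0403 for same-numbered samples, with a lowest of -0.00741, and -0.0136 for other numbers. A shared number was therefore not shown to mark paired cultures. No pair of samples agreed within sampling noise (lowest chi-square per degree of freedom within a group 2.36).

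The members and the gene lists were chosen with earlier results of these data known. Members with an adjusted p under 0.05 over all samples or for the difference between sets, and the Atg8 family, are given with their sample values; other members by their fold change; of each further list, up to 2 genes called in each direction with the largest changes. Positions and neighbours are from GENCODE M21. CACGTG, TCACGTGA and the latter's 10-base extension, all palindromes, were searched in RefSeq windows of GRCm38.p6; 6 members had no window. Stretches with more than 30 of the 120 bases in an annotated exon were shortened. As alternatives, recovered reads were tested with DESeq2 1.42.0 and edgeR 4.0.16, and limma was rerun with a replicate block, the number set as covariate, either set alone, *GFP*-NSPC replicate 1 left out, no trend, quantile or median-of-ratios scaling, a stricter or no filter, or a pseudocount of 0.1 or 2. *Dbx2* was added to these after its values had been seen. The fits were also run on simulated reads, in which the controls held no difference between the number sets. That run therefore does not show how the main fit performs where such a difference is present, as it is here. Python 3.11.15, numpy 2.4.6, pandas 2.3.3 and matplotlib 3.10.9 were used.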

Additional observations from a re-analysis of the deposited data

Results flagged for a closer look

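Among 90 groups of 8 samples, 1 for each tested member and transgene, 5 held a sample whose gap to the nearest other sample took more of the group's range than Dixon's 95% value of 0.526 allows. Chance flags about 1 in 20 groups. *GFP*-NSPC replicate 1 was high for *Ctsb*, at 213.12 CPM against 123.45 CPM for the next sample, and for *Ctsd*, at 620.82 against 363.99 CPM. *Dbx2*-NSPC replicate 4 was low for *Scarb2*, at 147.47 against 181.4 CPM, and for the peptidase gene *Tpp1*, at 33.37 against 83.07 CPM. *Dbx2*-NSPC replicate 2 was high for *Glb1*, at 50.68 against 41.19 CPM.

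For 6 members the log2 fold change in samples numbered 5 to 8 less that in samples numbered 1 to 4 passed the interaction test. The difference was 0.99 for *Cd63* (adjusted p = 9.01e-05), 0.55 for *Scarb2* (adjusted p = 0.0202), 4.82 for *Ctsh* (adjusted p = 2.04e-05), -3.94 for *Ctsz* (adjusted p = 2.73e-07), 1.29 for *Gm2a* (adjusted p = 0.000148) and -1.41 for *Lipa* (adjusted p = 0.000574). The values of *Ctsh* and *Ctsz* depend on the 0.5 CPM added before the logarithm, since a group of each held 1 or 0 reads, and they bound no fold.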

How the results depend on the processing

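*Lamp1*, *Ctsa*, *Ctsd*, *Grn* and *Sgsh* kept their direction and their call in all 16 alternatives. The count of members that rose was 9 in samples numbered 1 to 4, 15 in samples numbered 5 to 8 and 10 to 13 in the others. Members that fell numbered 2 instead of 1 with the replicate block, with the number set as covariate and in samples 5 to 8. With the replicate block in limma, the members that gained the call were *Gaa* and *Ctsz*; with it in edgeR they were *Gaa* and *Map1lc3b* (adjusted p = 0.0493), and *Ctsz* did not (adjusted p = 0.281). With the number set as covariate, 3034 of all tested genes were called instead of 1982, and 21 of the further pathway genes instead of 13. These further genes numbered 27 in samples 5 to 8 and 24 by edgeR with the number set, of 123 tested, where 2911 and 2941 of the 12533 tested genes were called. The level of *Dbx2* differed by 0.54 in samples 1 to 4 (adjusted p = 0.0891). The causes were not tested.

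Among the members given with sample values, the sign turned for the following, none of which was called over all samples. In samples 1 to 4 alone the log2 fold change was -0.21 for *Cd63*, -1.19 for *Ctsh*, 0.00070 for *Ctsz*, -0.055 for *Gabarap*, 0.23 for *Gabarapl1* and 0.076 for *Gabarapl2*, and in samples 5 to 8 it was 0.63 for *Gm2a* and -0.15 for *Lipa*. *Gm2a* was at 0.014 with median-of-ratios and 0.023 with quantile scaling and at 0.17 without *GFP*-NSPC replicate 1. *Gabarapl1* was at 0.019 and 0.031 with these scalings, 0.047 without that sample, 0.035 by DESeq2, and 0.034, 0.015 and 0.020 by edgeR alone, with the number set and with the replicate block.

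Among the called members, *Atg5*, *Ctsb*, *Naglu*, *Ppt1* and *Scarb2* lost the call in 1 alternative each, *Wipi1* in 2 and *Man2b1* in 4; apart from 3 of those of *Man2b1*, all were single number sets with 4 samples a group. Depth limits *Ctss*, *Manba* and *Retreg1*, whose levels lie near the floor, and *Ctsh* in *GFP*-NSPCs numbered 5 to 8, with 1 read.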

Other observations

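*Ctsc*, the dipeptidyl peptidase gene of the cathepsin family, was picked out of the further hydrolases after its values had been seen. It had 0 reads in *GFP*-NSPCs 1 to 4 and was at 23.76, 20.64, 9.44 and 7.18 CPM in *Dbx2*-NSPCs 1 to 4, at least 12.6-fold higher against the highest floor of 3 reads in a library. In numbers 5 to 8 the order was the opposite, with 104.17, 83.74, 86.4 and 96.23 CPM in *GFP*-NSPCs and 0.35, 1.24, 1.35 and 0 CPM in *Dbx2*-NSPCs. The interaction of transgene and number set passed (limma adjusted p = 6.09e-13), whereas over all samples the log2 fold change was -0.80 (adjusted p = 0.748).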
